A study of Mus musculus with 14 samples.

Results

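The parietal endoderm marker genes Thbd, Plat, Fst, Snai1, Pth1r and Srgn were followed by ATAC-seq, which marks open chromatin, while mouse embryonic stem (ES) cells were driven towards primitive endoderm (PrE) by GATA6. The accessible regions of these 6 genes were the merged regions of 14 peak lists whose nearest protein-coding transcription start site (TSS), within 50 kb, belonged to one of them. They numbered 43 of 124598 merged regions, and of the 84402 regions (67.7%) that could be assigned to any protein-coding gene. Snai1 held 14 of them, Srgn 11, Plat 7, Fst 5, Pth1r 4 and Thbd 2. Of the 43, 5 were called in all 14 libraries, 9 in a single library and 29 in 2 to 12 libraries. A region was called in a library when a peak of that library overlapped it by 1 bp or more.

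All libraries came from KH2 ES cells, given as strain C57BL/6, that were engineered to carry the transgene TRE:GATA6-DSREd2, so the uninduced cells held it too. They are a single engineered line with a single copy of the transgene behind a tetracycline-responsive element. Uninduced cells (0 h, no doxycycline) were in 2i medium with LIF. The other groups were moved to serum medium with LIF and 1 µg/mL doxycycline (Dox) for 2, 4 or 8 h, or for 12 h followed by serum medium without Dox until 16, 24 or 48 h. Each of the 7 time points had 2 libraries of 50000 cells each. No group received serum without Dox, so the change of medium and the induction of GATA6 cannot be told apart in comparisons with 0 h. All libraries of 16, 24 and 48 h followed the removal of Dox, and all earlier ones preceded it. Later time and Dox removal therefore cannot be told apart where these are compared, as for regions first called at 16 h. The study states in general terms that replicates were run independently. The labels do not say what was separate between the libraries of a time point, so the p-values refer to these libraries only. They come from permuting libraries over the times, so the spread they use includes differences between times.

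Parietal endoderm is the derivative of PrE that lines the yolk cavity and lays down Reichert's membrane, a thick basement membrane against the trophoblast. Its cells are migratory, have undergone an epithelial-mesenchymal transition and secrete proteases, laminins and type IV collagen. The 6 genes cover several of these activities. Thbd (thrombomodulin) is the cell-surface cofactor through which thrombin activates protein C, and Plat (tissue plasminogen activator) turns plasminogen into plasmin. Fst (follistatin) is a secreted protein that binds and blocks activin. Pth1r is the G protein-coupled receptor for parathyroid hormone and its related protein, signals that promote the formation of parietal endoderm. Srgn (serglycin) is a proteoglycan of secretory granules, and Snai1 is a zinc-finger repressor of Cdh1 that acts in the epithelial-mesenchymal transition. The lists hold open regions and not transcripts, so whether these genes were transcribed was not measured here.

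The lists held 55588 to 65073 peaks and covered 23.0 to 31.2 Mb. Reads per library are not part of them, so the depth behind a call is unknown. Among all regions assigned to a gene, each library called between 45.7% and 54.0%. Among the 43 member regions the share was 30.2% and 18.6% in the 0 h libraries and 60.5% in both 48 h libraries. In cells taken in bulk, a region open in fewer cells and one less open in each cell cannot be told apart.

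The sequences below are the central 200 bases of 7 regions on the plus strand of GRCm38, read from RefSeq's assembly. Capitals mark the letters of the GATA word, that is AGATAA or AGATAG or TGATAA or TGATAG on either strand. The first group is shown because it holds, for each gene that gained regions by 48 h, the gained region of highest score rank at 48 h. These are the intron of Plat at chr8:22761438-22761637, the intergenic DNA upstream of Snai1 at chr2:167531272-167531471, the DNA upstream of Pth1r within an intron of Myl3 at chr9:110752865-110753064, and the intergenic DNA upstream of Srgn at chr10:62528629-62528828. Only the window near Srgn held GATA words, 2 of them.
Plat, 3.81 kb downstream of the TSS: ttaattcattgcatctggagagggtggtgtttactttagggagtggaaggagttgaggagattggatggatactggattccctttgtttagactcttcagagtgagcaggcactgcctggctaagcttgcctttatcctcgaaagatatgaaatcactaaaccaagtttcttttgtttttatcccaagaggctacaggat
Snai1, 6.82 kb upstream of the TSS: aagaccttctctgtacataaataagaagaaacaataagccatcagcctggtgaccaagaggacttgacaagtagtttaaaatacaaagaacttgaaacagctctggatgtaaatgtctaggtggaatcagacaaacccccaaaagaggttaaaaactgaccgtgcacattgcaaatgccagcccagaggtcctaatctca
Pth1r, 5.82 kb upstream of the TSS: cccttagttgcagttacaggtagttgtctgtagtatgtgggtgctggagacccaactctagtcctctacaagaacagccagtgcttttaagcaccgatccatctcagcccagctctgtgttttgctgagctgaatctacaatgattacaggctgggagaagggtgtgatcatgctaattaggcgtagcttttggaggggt
Srgn, 1.28 kb upstream of the TSS: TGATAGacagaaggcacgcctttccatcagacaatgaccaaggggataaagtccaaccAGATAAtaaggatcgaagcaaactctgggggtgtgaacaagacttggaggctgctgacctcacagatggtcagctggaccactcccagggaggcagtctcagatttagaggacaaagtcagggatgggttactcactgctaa

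The second group is shown because its regions went another way. The intergenic region upstream of Snai1 at chr2:167530001-167530200 was called in ES cells and was lost. The intergenic regions upstream of Plat at chr8:22751086-22751285 and upstream of Fst at chr13:114488249-114488448 were called between 2 and 24 h and not called at either end of the course.
Snai1, 8.09 kb upstream of the TSS: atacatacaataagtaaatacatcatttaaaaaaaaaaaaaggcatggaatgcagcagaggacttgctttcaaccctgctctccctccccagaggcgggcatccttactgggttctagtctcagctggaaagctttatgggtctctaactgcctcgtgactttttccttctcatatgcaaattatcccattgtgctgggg
Plat, 6.54 kb upstream of the TSS: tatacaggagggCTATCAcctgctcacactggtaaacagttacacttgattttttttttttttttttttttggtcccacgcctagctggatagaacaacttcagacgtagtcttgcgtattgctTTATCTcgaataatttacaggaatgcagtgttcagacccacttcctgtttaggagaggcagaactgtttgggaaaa
Fst, 29.4 kb upstream of the TSS: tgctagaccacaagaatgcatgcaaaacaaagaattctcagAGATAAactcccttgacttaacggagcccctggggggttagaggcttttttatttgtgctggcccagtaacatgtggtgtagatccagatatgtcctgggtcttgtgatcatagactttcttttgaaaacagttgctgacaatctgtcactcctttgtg
The Plat window held 2 GATA words, the Fst window 1 and the Snai1 window none.

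By 48 h, open chromatin had been gained around 4 of the 6 genes and lost around 1. A region was counted as gained when both libraries of the later time called it and neither 0 h library did, and as lost in the reverse case. At 48 h, 15 of the 43 member regions were gained, beside 14.1% of all assigned regions, and 2 were lost, beside 14.4%. Srgn gained 6, Pth1r 4, Snai1 3 and Plat 2. Thbd and Fst gained none. Both lost regions belonged to Snai1. No test is given for them, because an exact permutation of 4 libraries cannot bring a two-sided p below 0.333. The number lost rested on replicate 2 at 0 h, which called 8 member regions where replicate 1 called 13. Without that library 6 regions counted as lost at 48 h.

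The gains built up over the course. At 2 h, 4 of the 43 regions were gained, beside 7.88% of all assigned regions, and 1 was lost, beside 5.61%. At 16 h, 12 were gained, beside 12.6%, and 0 were lost, beside 8%. Without replicate 2 at 0 h, the numbers lost were 4 at 2 h and 3 at 16 h. None of the 4 regions gained at 2 h was among the 15 gained at 48 h. They lay 6.54 kb upstream of Plat, 29.4 kb upstream of Fst, 14.9 kb downstream of Snai1 and 9.59 kb downstream of the TSS of Srgn.

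**Figure D1:**
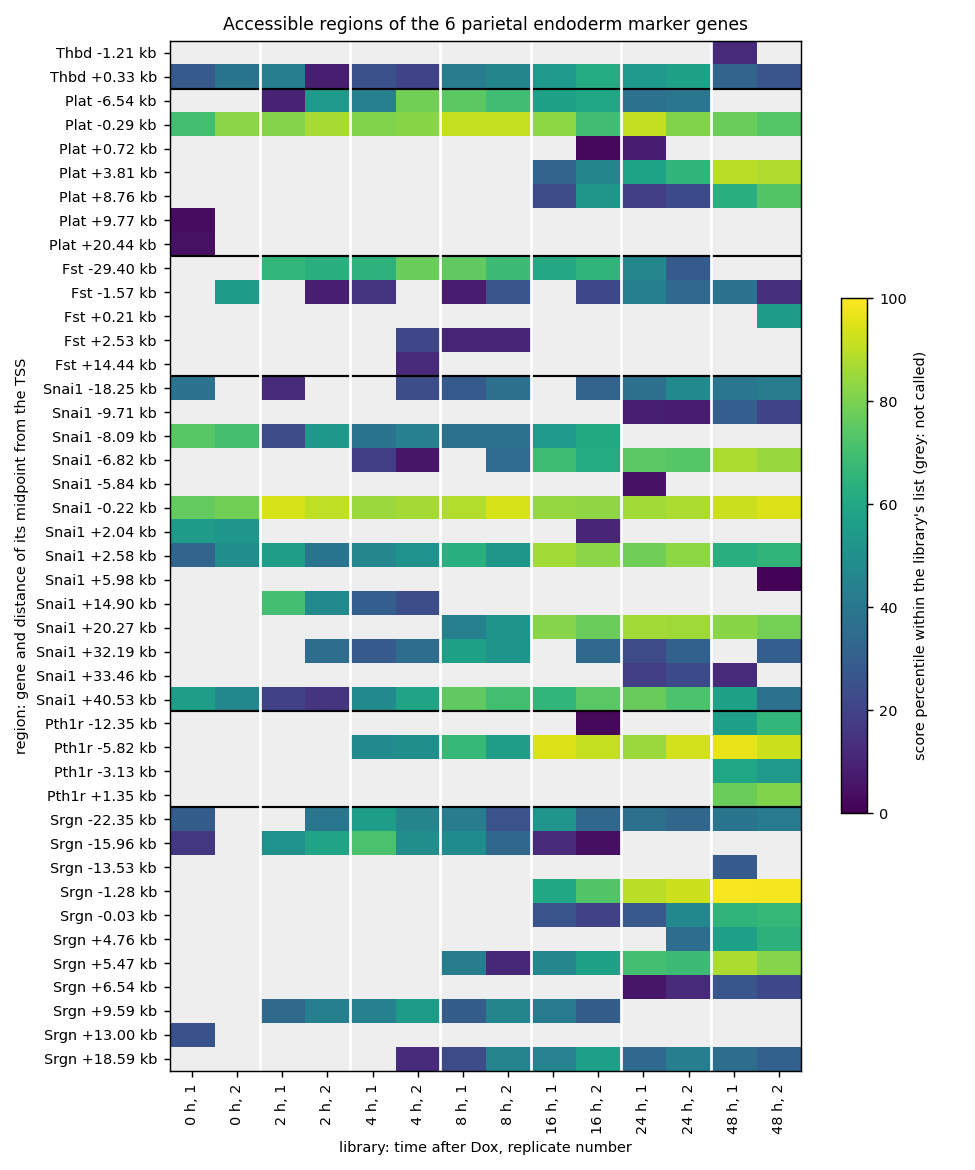
Score percentile of each of the 43 regions (rows, by gene and signed distance from the TSS in kb) in each of the 14 libraries (columns, by time after Dox in h and replicate number), with grey where the library did not call the region. The rows of Srgn and Pth1r are mostly grey at 0 h and filled at 48 h, 5 rows are filled in all 14 libraries, and 2 rows are filled only from 2 to 24 h.

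Trends were tested by exact permutation (two-sided). The statistic was the sum of midranked times over the libraries that called a region, with Benjamini-Hochberg adjustment over all 79559 regions called in 2 to 12 libraries. Of the 29 member regions tested, 12 rose with time, beside 12.1% of all tested regions, and 1 fell, beside 12.3%. The 12 were 6 regions of Srgn, 3 of Snai1, 2 of Plat and 1 of Pth1r, and all 12 were among the 15 gained at 48 h. The other 3 were the regions of Pth1r that were called mainly at 48 h. This test ranks calls and not heights, and a region called in a single library or in all 14 cannot enter it.

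Per gene, the mean number of called regions at 16, 24 and 48 h was compared with that at 0, 2 and 4 h, in 6 libraries each. Each SD over 6 libraries pools their times, so it holds differences between times as well as between replicates. Exact permutation of the 12 libraries gave a two-sided p for each gene, adjusted over 16144 genes. Srgn alone among the 6 genes passed, with more regions late, beside 3.41% of all genes, and 0 of the 6 passed with fewer, beside 2.11%. Of all genes tested, 3420 had an unadjusted p under 0.05. Srgn went from 2.5 ± 1.38 to 7.0 ± 0.632 called regions (SD, n = 6 each), an adjusted p of 0.0393 by the exact permutation test. Its p of 0.00216 is the smallest the 12 libraries can give. Without the 0 h libraries the adjusted p of Srgn was 0.0573 by the same test. There the smallest possible p was 0.00952 and 0 of all genes passed, so that setting cannot decide about Srgn.

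**Figure D2:**
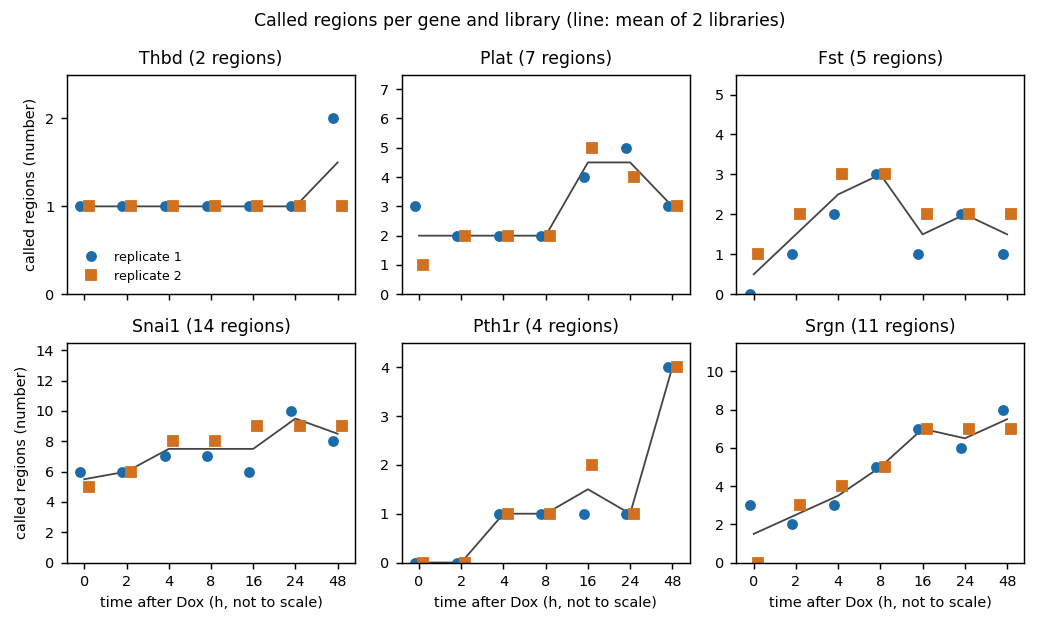
Number of called regions (y axis, from 0) of each gene against time after Dox (x axis, in h, not to scale), with circles for replicate 1, squares for replicate 2 and a line through the mean of the 2 libraries. Srgn climbs from 3 and 0 regions at 0 h to 8 and 7 at 48 h, Pth1r goes from 1 to 4 between 24 and 48 h, and Thbd stays at 1 in 13 of the 14 libraries.

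Srgn, the proteoglycan gene, showed the most gained regions of the 6. The gene lies at chr10:62493833-62527451 on the minus strand. Its libraries called 3 and 0 regions at 0 h, 2 and 3 at 2 h, 3 and 4 at 4 h, 5 and 5 at 8 h, 7 and 7 at 16 h, 6 and 7 at 24 h, and 8 and 7 at 48 h. Every library from 16 h on lay above every library up to 4 h.

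The Srgn promoter itself went from uncalled to called. The region over its TSS (chr10:62527314-62527654, in the 5′ exon) was absent from all 8 libraries up to 8 h and present in all 6 from 16 h. Its score percentile, that is its rank among the peaks of the same list from 0 to 100, was 26.3 and 19.8 at 16 h, 27.9 and 46.7 at 24 h, and 65.0 and 66.5 at 48 h. The percentiles at 48 h lay above all those at 16 and 24 h. The adjusted p of its trend was 0.0130 (exact permutation test).

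This pattern was rare at promoters. Of 21951 protein-coding genes, 13285 (60.5%) had a region with its midpoint within 1 kb of the TSS. In 8161 genes (37.2%) the region nearest the TSS was called in all 14 libraries, and in 55 genes (0.251%), Srgn among them, it was called in no library before 16 h and in every library from then on. The pattern of Srgn was known when these genes were counted.

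Just upstream, the intergenic region 1.28 kb from the Srgn TSS (chr10:62528320-62529138), whose central sequence is printed above, had the same 6 calls. Its percentiles were 59.5 and 72.7 at 16 h, 89.8 and 92.6 at 24 h, and 99.2 and 98.6 at 48 h. It thus stood among the highest-ranked peaks of both 48 h lists. The whole region of 819 bases held 4 GATA words.

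Within the introns of Srgn, 4 more regions rose. The region 5.47 kb downstream of the TSS (chr10:62521716-62522238) was called in all 8 libraries from 8 h, with percentiles of 41.8 and 11.3 at 8 h and of 87.7 and 82.0 at 48 h. The region 6.54 kb downstream (chr10:62520630-62521184) was called from 24 h, at percentiles of 6.02 and 12.1, and stood at 26.6 and 21.6 at 48 h. These neighbours were thus first called at different times and ended at different ranks. The region 4.76 kb downstream (chr10:62522412-62522977) was called in replicate 2 at 24 h and in each 48 h library, with percentiles of 36.1, 56.5 and 64.4.

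The region 18.6 kb downstream of the Srgn TSS (chr10:62508428-62509291) was called in replicate 2 at 4 h and in all 8 libraries from 8 h, with percentiles between 12.6 and 56.4. The adjusted p was 0.0451 for the region at 4.76 kb and 0.0130 for the other 3 (exact permutation test). The call at 4.76 kb was lost when any single library of 4, 8, 16 or 48 h, or replicate 2 at 24 h, was left out, at adjusted p-values of 0.0541 to 0.0932. The call at 18.6 kb was lost (0.513) when a peak had to cover 50% of the region. Without the 0 h libraries, both had an adjusted p of 0.0605.

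The other 5 Srgn regions did not rise. The region 9.59 kb downstream of the TSS was called in both libraries of every time from 2 to 16 h, at percentiles of 29.6 to 54.5, and in none at 0, 24 and 48 h. Upstream, in an intron of Kif1bp, the region at −15.96 kb followed nearly the same course and was also called in replicate 1 at 0 h. The region at −22.35 kb, in the same gene, was called in 12 libraries. A further 2 regions were called in 1 library each.

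Pth1r, the receptor gene, had no called region in any library at 0 or 2 h and 4 in both libraries at 48 h. The gene lies at chr9:110722085-110747145 on the minus strand and overlaps the 5′ part of Myl3 on the other strand. Its libraries called 0 regions at 0 and 2 h, 1 each at 4 and 8 h, 1 and 2 at 16 h, 1 each at 24 h and 4 each at 48 h. The mean went from 0.333 ± 0.516 early to 2.17 ± 1.47 late (SD, n = 6 each), with an adjusted p of 0.136 (exact permutation test), so the gene did not pass. The late libraries overlapped the early ones at 1 region.

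The earliest region of Pth1r was also the highest-ranked. It lay 5.82 kb upstream of the TSS in an intron of Myl3 (chr9:110752364-110753565) and was called in all 10 libraries from 4 h. Its percentiles were 48.2 and 49.9 at 4 h, 67.0 and 55.6 at 8 h, 94.6 and 91.1 at 16 h, 84.8 and 93.1 at 24 h, and 96.7 and 92.4 at 48 h. Every library from 16 h on ranked it above every earlier library. Its trend had an adjusted p of 0.0130 (exact permutation test), and of 0.0622 without the 0 h libraries.

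The remaining 3 Pth1r regions were called in both libraries at 48 h. The intronic region 1.35 kb downstream of the TSS (chr9:110745421-110746166) was called at 48 h only, at percentiles of 77.4 and 80.9, and the region at −3.13 kb at 58.8 and 54.2. The region at −12.35 kb had 56.4 and 66.1 at 48 h and 2.15 in replicate 2 at 16 h. Calls in the 2 libraries of 48 h alone give an exact permutation p of 0.0220 and an adjusted p of 0.0541, so such a region cannot pass however high it ranks. The adjusted p of the region at −12.35 kb was 0.0733. No region had its midpoint within 1 kb of the Pth1r TSS. The 48 h peaks of the region at 1.35 kb began 991 bp (replicate 1) and 979 bp (replicate 2) downstream of the TSS. All 4 regions also lie in introns of Myl3, a cardiac and slow-muscle myosin light chain gene, and were assigned to Pth1r by the nearer TSS.

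Plat, the plasminogen activator gene, gained 2 intronic regions beside a promoter that was open throughout. The gene lies at chr8:22757727-22782844 on the plus strand. Its libraries called 3 and 1 regions at 0 h, 2 each at 2, 4 and 8 h, 4 and 5 at 16 h, 5 and 4 at 24 h and 3 each at 48 h. The mean went from 2.0 ± 0.632 early to 4.0 ± 0.894 late (SD, n = 6 each), with an adjusted p of 0.0828 (exact permutation test). The only early library that reached the late range was replicate 1 at 0 h. Plat passed when only the 50000 highest peaks of each list were used (adjusted p 0.0306) or when regions had to lie within 20 kb of a TSS (0.0456).

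The 2 intronic regions, 3.81 kb (chr8:22761243-22761833) and 8.76 kb (chr8:22766189-22766780) downstream of the Plat TSS, had calls in all 6 libraries from 16 h and in none before. At 3.81 kb the percentiles were 32.6 and 45.6 at 16 h, 57.9 and 65.5 at 24 h, and 89.7 and 88.2 at 48 h. At 8.76 kb they were 23.4 and 53.1, then 18.7 and 22.5, then 62.9 and 73.2. Both were highest at 48 h, and both had an adjusted p of 0.0130 (exact permutation test). The promoter region, 0.29 kb upstream (chr8:22757050-22757826), was called in all 14 libraries at percentiles of 69.4 to 91.3. The other regions of Plat were 3 weak ones called in 1 or 2 libraries, at percentiles of at most 7.43, and the transient region at −6.54 kb.

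Snai1, the transcription factor gene, had the most regions and both gained and lost some. The gene lies at chr2:167538195-167542814 on the plus strand. Its libraries called 6 and 5 regions at 0 h, 6 each at 2 h, 7 and 8 at 4 h and at 8 h, 6 and 9 at 16 h, 10 and 9 at 24 h, and 8 and 9 at 48 h. The mean went from 6.33 ± 1.03 to 8.5 ± 1.38 (SD, n = 6 each), with an adjusted p of 0.181 (exact permutation test), and the early and late libraries overlapped.

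Open chromatin at Snai1 was present in ES cells. The promoter region 0.22 kb upstream of the TSS (chr2:167537635-167538318) was called in all 14 libraries at percentiles of 76.2 to 94.6. The intronic region at 2.58 kb and the intergenic region at 40.53 kb were also called in all 14. The percentile at 2.58 kb was 32.8 and 48.9 at 0 h, 86.3 and 82.6 at 16 h, and 62.9 and 65.4 at 48 h, so its rank was higher at 16 h than at either end.

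Around this constant set, 3 intergenic Snai1 regions rose. The region 20.27 kb downstream of the TSS (chr2:167557996-167558928) was called in all 8 libraries from 8 h, at 43.7 and 51.9 at first and 82.3 and 79.3 at 48 h. The region at −6.82 kb (chr2:167531070-167531673) had calls in both 4 h libraries (18.4 and 6.23), in replicate 2 at 8 h (34.9) and in all 6 libraries from 16 h, reaching 87.7 and 84.5 at 48 h. The region at −9.71 kb (chr2:167528380-167528587) was called from 24 h and stood at 29.8 and 20.9 at 48 h. Their adjusted p-values were 0.0130, 0.0338 and 0.0130 in this order (exact permutation test). The call at −6.82 kb was lost without either library of 2 h (0.0563 without replicate 1 and 0.0571 without replicate 2) and without the 0 h libraries (0.104).

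The falling region lay between them. At −8.09 kb (chr2:167529727-167530474), next to the rising region at −6.82 kb, Snai1 had a region that was called in all 10 libraries up to 16 h and in none at 24 and 48 h. Its percentiles were 74.0 and 70.3 at 0 h, between 23.3 and 60.6 from 2 to 16 h, and absent afterwards. The adjusted p was 0.0130, and 0.0595 when a peak had to cover 50% of the region (exact permutation test). The other lost region, in an intron at 2.04 kb (55.3 and 52.4 at 0 h), was also called in replicate 2 at 16 h, and its trend did not pass (0.266). This region (chr2:167540087-167540390) was also the one lost at 2 h. It ended within 100 bp of the constant region at 2.58 kb (chr2:167540482-167541068). With peaks within 100 bp merged, it no longer counted as lost. Without replicate 2 at 0 h, 2 member regions fell in place of 1.

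**Figure D3:**
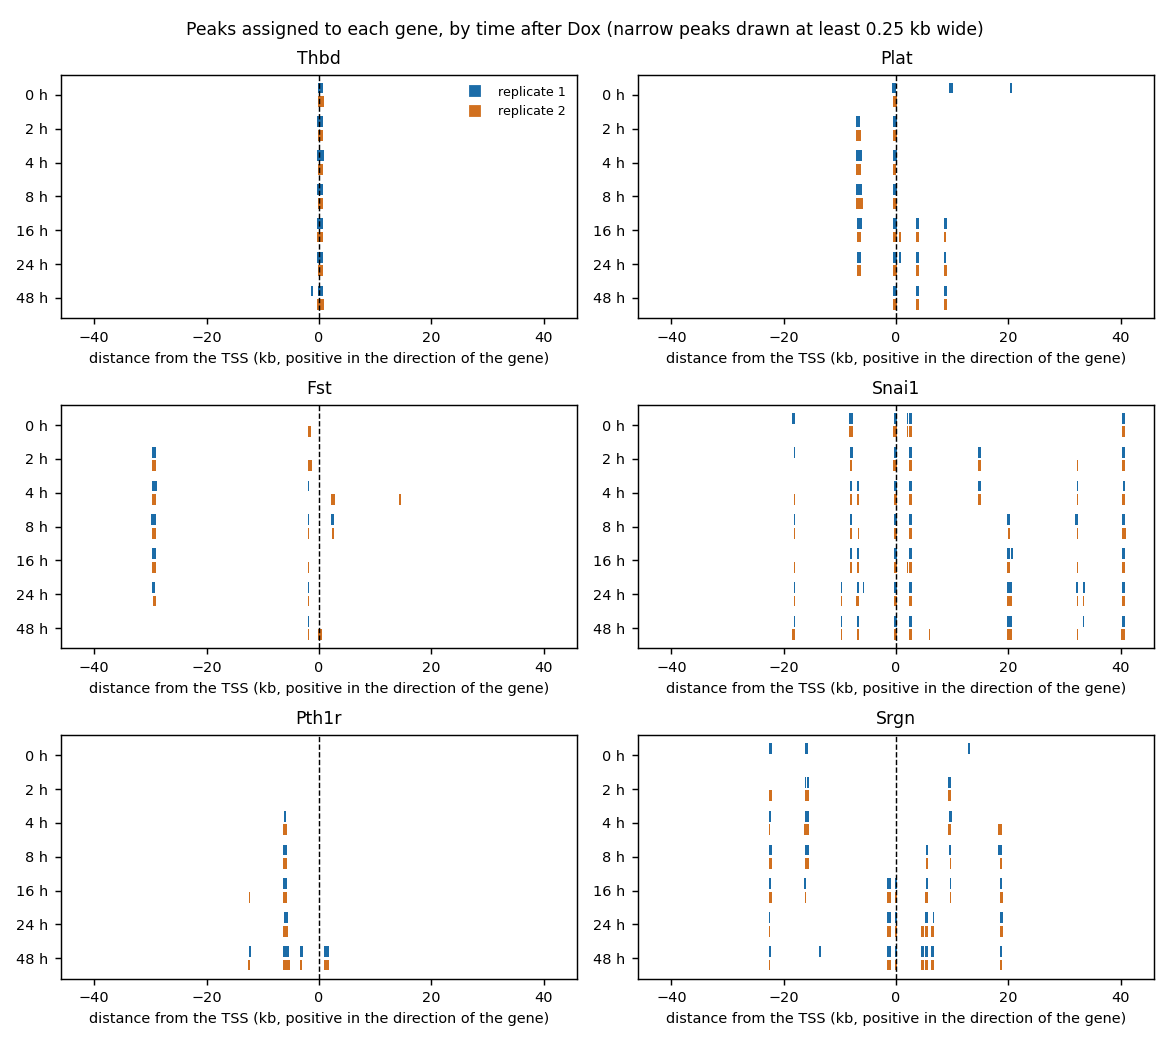
Peaks assigned to each gene, drawn by distance from the TSS (x axis, in kb, positive in the direction of the gene; dashed line at the TSS) for each time after Dox (y axis), in blue for replicate 1 and orange for replicate 2. At Snai1 the region at −8.09 kb ends after 16 h beside the growing one at −6.82 kb, and at Srgn the region over the TSS starts at 16 h.

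Thbd, the thrombomodulin gene, kept a single open region. The gene lies at chr2:148404466-148408188 on the minus strand. The region over the 5′ end of its exon (chr2:148407240-148408472) was called in all 14 libraries, with the lowest percentile at 8.30 in replicate 2 at 2 h, a median of 40.6 and the highest at 61.6 in replicate 2 at 16 h. At 48 h it stood at 32.4 and 26.1, beside 28.4 and 39.0 at 0 h. A second region 1.21 kb upstream was called only in replicate 1 at 48 h, at 12.2. Thbd thus gained and lost none.

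Fst, the activin inhibitor gene, changed in the middle of the course more than at its end. The gene lies at chr13:114452290-114458951 on the minus strand. Its libraries called 0 and 1 regions at 0 h, 1 and 2 at 2 h, 2 and 3 at 4 h, 3 each at 8 h, 1 and 2 at 16 h, 2 each at 24 h, and 1 and 2 at 48 h. The highest counts were at 4 and 8 h. The late minus early difference was 0.17 regions, with an adjusted p of 1 (exact permutation test), and its sign turned without the 0 h libraries (−0.33).

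The Fst promoter region (chr13:114458330-114459144) was called only in replicate 2 at 48 h, at a percentile of 55.3, and in none of the other 13 libraries. Of all protein-coding genes, 625 (2.85%) had a region nearest the TSS that was called in a single library. The region 1.57 kb upstream was called in 10 libraries scattered over the course, among them replicate 2 at 0 h at 55.3. An exonic region at 2.53 kb was called in replicate 2 at 4 h and in both libraries at 8 h, at percentiles of 10.2 to 21.3.

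**Figure D4:**
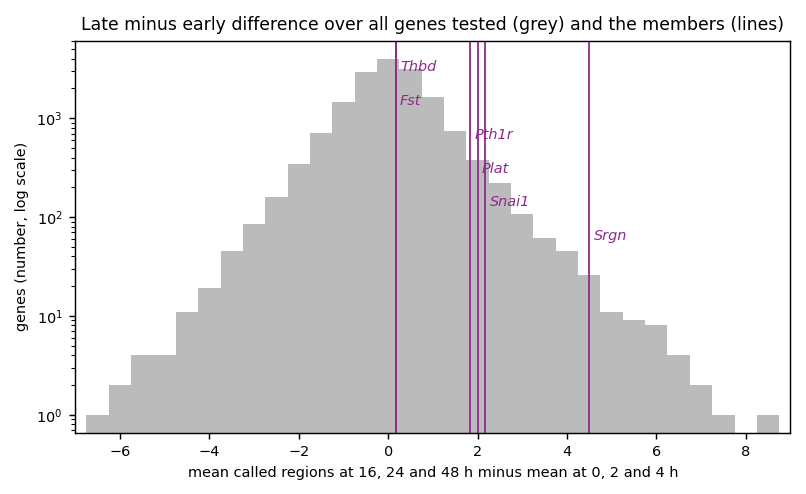
Late minus early difference in called regions (x axis, mean at 16, 24 and 48 h minus mean at 0, 2 and 4 h) for all 16144 genes tested (grey bars, number of genes on a log scale), with a line for each of the 6 genes. Srgn, at 4.5 regions, lies above 99.7% of all genes, Snai1, Plat and Pth1r lie above 94.6% or more, and Thbd and Fst lie near 0. The difference is not scaled by the number of regions of a gene, so genes with more regions can differ by more.

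The transient regions of Plat and Fst shared 1 course. The intergenic region 6.54 kb upstream of Plat (chr8:22750565-22751807) and that 29.4 kb upstream of Fst (chr13:114487856-114488841) were each called in both libraries at 2, 4, 8, 16 and 24 h and in none at 0 and 48 h. This course was seen in 2 of 43 member regions and in 0.289% of all assigned regions (244). It was looked for after these values were seen, so the count is a description. The Plat region had percentiles of 9.86 and 53.5 at 2 h, 43.4 and 78.8 at 4 h, 74.7 and 69.2 at 8 h, 57.2 and 59.1 at 16 h, and 37.9 and 39.4 at 24 h. The Fst region stood between 60.5 and 77.3 from 2 to 16 h and at 46.1 and 28.2 at 24 h. For each region, both percentiles at 24 h lay below both at 8 h. A course that is even around the middle of the times gives the trend test no direction, and the p of both was 1 by the exact permutation test.

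Most of the 15 regions gained at 48 h were already called in every library from 16 h on. By definition none was called at 0 h and all were called at 48 h. From 4 h on, 1 was called in every library, from 8 h 3 more, from 16 h 5 more, from 24 h 2 more and at 48 h the last 4. By 16 h, 9 of 15 (60.0%) had settled, beside 39.6% of the 11910 regions gained by all genes, and 26.7% settled only at 48 h, beside 43.7%. None of the 15 was called in a 2 h library, where 14.9% and 16.1% of the regions gained by all genes were called. These are counts of few regions from 4 genes, and the difference was not tested.

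**Figure D5:**
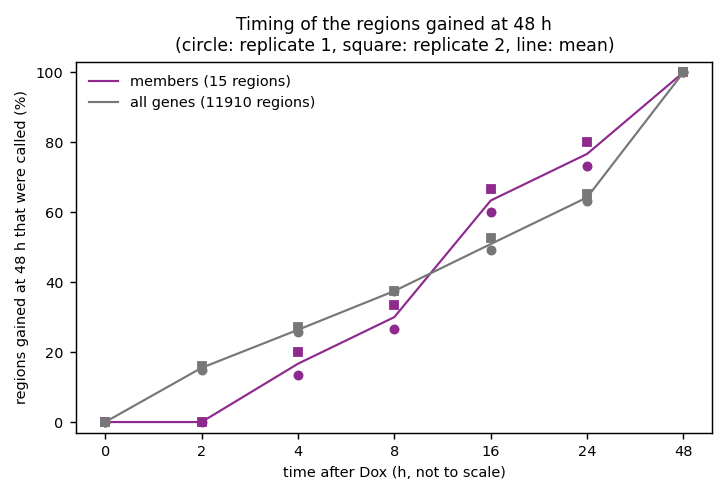
Share (y axis, in %) of the regions gained at 48 h that each library called, against time after Dox (x axis, in h, not to scale), for the 15 member regions (purple) and the 11910 regions of all genes (grey), with circles for replicate 1, squares for replicate 2 and lines through the means. The members start later, at 0% in both 2 h libraries, and pass the grey line at 16 h (60.0% and 66.7% against 49.1% and 52.6%), while the values at 0 h and 48 h are fixed by the definition.

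Of the 43 regions, 17 were intronic, 17 intergenic and 9 exonic. Of the 15 gained, 10 were intronic, 4 intergenic and 1 exonic. The 5 regions called in all 14 libraries, beside 19.2% of all assigned regions, included the promoters of Thbd, Plat and Snai1. The promoters of Srgn, Fst and Pth1r were not called in ES cells. A promoter is taken here as a region with its midpoint within 1 kb of the TSS. Among the 6 genes, then, the promoter of 3 was open from the start and that of Srgn was called from 16 h. That of Fst was called in 1 library of 48 h and that of Pth1r in none.

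GATA words were searched in the central 200 bp of each region. Of the 15 gained member regions, 8 (53.3%) held at least 1, with an exact Clopper-Pearson 95% interval of 26.6% to 78.7%. This interval covers counting error only and treats the regions as independent, though several lie at the same gene. The share was 54.2% of all gained regions, 20.8% of lost, 16.4% of shared (called in both libraries at 0 and 48 h) and 31.9% of all assigned regions. The letter-permuted words AAGTAA and AAGTAG and TAGTAA and TAGTAG were found in 6 of the 15 (40.0%) and in 22.6% of all gained regions. The AP-1 word TGACTCA or TGAGTCA was found in 1 of the 15 (6.67%), in 4.78% of all gained regions and in 8.45% of all assigned regions. The gained share among members was thus close to that of all gained regions, and the interval is wide.

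By gene, the GATA words in the gained regions were uneven. At Srgn, 5 of the 6 gained regions held a word in the central window, and the region over its TSS held none. At Pth1r it was 2 of 4, at Plat 1 of 2 and at Snai1 0 of 3. Over their whole length, 12 of the 15 (80.0%) held a word, beside 70.7% of all gained regions. The share was 69.8% of the 43 member regions and 54.2% of all assigned regions. The permuted words were in 46.7% of the 15 and 45.7% of all gained regions. The median width was 591 bp for the 15 and 469 bp for all gained regions, and the effect of width was not tested. The gained member regions without a GATA word at full length were those of Plat at 3.81 kb, Snai1 at −9.71 kb and Srgn at its TSS. A match of 6 letters is not evidence of binding, and no match says only that these letters are not in the window.

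The partners of the 6 genes were taken as lists of genes from the same pathways. Over all genes, 3.41% passed the late against early test with more regions and 2.11% with fewer. Of 12 genes of the plasminogen and protein C system, which Thbd and Plat belong to, 0 passed the late against early test. Their 81 regions had 9 (11.1%) gained and 7 (8.64%) lost at 48 h, beside 14.1% and 14.4% of all assigned regions. The genes of this list that gained most were Plg, plasminogen itself (3 of 5 regions), and Plaur, the urokinase receptor (2 of 4). In contrast, F2r gained 1 and lost 4 of 16, Proc gained 1 and lost 2 of 6, and Plau gained and lost 0 of 10.

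In the activin and follistatin list, 1 of 9 tested genes passed in each direction. Bmp2, a ligand of the same superfamily, rose from 2.0 to 4.5 regions, and Inhbb, which encodes an activin subunit, fell from 6.67 to 2.83 (adjusted p 0.0393 for both, exact permutation test). Of the list's 70 regions, 8 (11.4%) were gained and 18 (25.7%) lost, beside 14.1% and 14.4% of all assigned regions. Inhbb lost 6 of its 12 and gained none.

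Of the parathyroid hormone list, 1 of 8 genes passed. Gnas, which encodes the stimulatory G protein subunit that couples Pth1r to adenylyl cyclase, rose from 7.5 to 10.5 regions (adjusted p 0.0393, exact permutation test). Pthlh, the gene of the related ligand, gained and lost 0 of 3. The 39 regions of the list had 6 (15.4%) gained and 4 (10.3%) lost, beside 14.1% and 14.4% of all assigned regions.

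Of the proteoglycan list, 0 of 9 genes passed. Of its 68 regions, 20 (29.4%) were gained and 14 (20.6%) lost, beside 14.1% and 14.4% of all assigned regions. Sdc3 gained 7 of 12 and had 3.5 regions early and 7.33 late. The list's Cd44, a receptor that binds serglycin, gained 0 and lost 1 of 7. Cd44 had 2.67 regions early and 1.17 late. The adjusted p was 0.0951 for both Sdc3 and Cd44 (exact permutation test). Of the Snail and epithelial-mesenchymal transition list, 0 of 7 tested genes passed. Of its 62 regions, 9 (14.5%) were gained and 9 (14.5%) lost, close to the shares of all assigned regions. Cdh1, the E-cadherin gene, gained 3 and lost 3 of 22. Neither Snai2 nor Snai3 gained or lost a region.

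Cell type markers put the 6 genes beside the lineages of the early embryo. Of 10 other parietal endoderm markers, 2 passed with more regions late: Lamb1, a laminin chain, from 4.17 to 8.33, and Col4a1, a type IV collagen chain, from 2.5 to 5.67 (adjusted p 0.0393 for both, exact permutation test). Sparc, a matrix protein, had 9.0 and 12.8 (0.0682), and Nid1 gained 0 and lost 4 of 10. Of their 121 regions, 28.1% were gained and 14.9% lost at 48 h, beside 34.9% and 4.65% of the 43 member regions. The median late minus early difference was 1.92 regions over the 6 genes, 1.58 over these 10 and 0 over all genes tested.

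Of 7 PrE markers, 5 passed with more regions late (Gata4, Sox17, Pdgfra, Foxa2 and Cubn), with a median difference of 6.17, and 44.0% of their 91 regions were gained and 6.59% lost. Of 10 visceral endoderm markers, 1 passed (Hnf4a), and 32.1% of 53 regions were gained and 7.55% lost. Of 9 ES cell and epiblast markers, 1 passed with more regions (Klf4, from 3.33 to 9.33, adjusted p 0.0393 by exact permutation) and 0 with fewer, and 19.1% of 131 regions were gained and 22.1% lost. Of 7 trophectoderm markers, 0 passed, and 15.6% of 64 regions were gained and 21.9% lost. The lists differ in regions per gene, and differences between them were not tested.

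Genes with the most similar course of called regions over the 14 libraries were listed by Pearson r among the 7138 or 7139 other genes with at least 5 regions. For Srgn these were Tldc1 (0.948), Gatd1 (0.946) and Cmklr1 (0.940), and for Pth1r Eri3 (0.947), Myo6 (0.946) and Pxdn (0.942). For Plat they were Soga1 (0.924), Stx1a (0.917) and Adpgk (0.913). For Snai1 (Eif4b, 0.902), Fst (Ank2, 0.887) and Thbd (Mrpl15, 0.883) the highest r was lower, and for Thbd it rests on the 1 library with a second region. The points share their libraries and the order of time, so these r values are descriptions.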

How the data were processed

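ATAC-seq libraries from 7 time points with 2 libraries each were analysed as 14 peak lists. The authors made the deposited lists with the ENCODE ATAC-seq pipeline on GRCm38 (mm10), called peaks per library, kept those reproducible between pseudoreplicates and removed blacklisted regions. The deposited score of each peak has no stated scale, so only its rank within a list was used. Reads, and hence depth, were not analysed here, and the read-count test of the study could not be applied to peak lists.

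Overlapping peaks were merged and assigned to the nearest protein-coding TSS (GENCODE M21) within 50 kb, as computed with Python 3.11.15, numpy 2.4.6, scipy 1.17.1 and pandas 2.3.3. No peak passed a chromosome end of GRCm38. Exact permutation tests over libraries were adjusted by Benjamini-Hochberg at 0.05 and tested on simulated data. GATA words were counted in 200 bp around each midpoint, and in the whole region where it was shorter. Regions named in the text were, per gene, the one nearest the TSS within 1 kb, those past the trend test, and the highest-ranked gained and lost at 48 h. Other member regions were named after their values were seen. Members and lists were chosen with earlier results of these data known. Some listed genes are not reported here.

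Alternatives were the 50000 highest peaks per list, 50% cover, peaks within 100 bp merged, TSS distances of 20 and 100 kb, all transcript TSSs, a looser call rule, whole-region words, a replicate block, no 0 h libraries, and each replicate number or library left out.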

Additional observations from a re-analysis of the deposited data

How the results depend on the processing

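Calls rest on thresholded lists of unknown depth with 2 libraries per time, so an uncalled region is not shown to be closed. The numbers of regions gained at 16 h and 48 h stayed within 1.5 times of 12 and 15 under every alternative run. With the 50000 highest peaks, 1 region was lost at 16 h, 2 fell and 2 genes passed. With 50% cover, 0 fell. With peaks within 100 bp merged, 0 were lost at 2 h and 1 at 48 h. Within 20 kb, 2 genes passed. When a call in at least 1 library sufficed, 4 regions were lost at 2 h, 3 at 16 h and 6 at 48 h. With whole regions, 80.0% of the gained regions held a GATA word. Without the 0 h libraries, 4 regions fell and 0 genes passed; the smallest p was then 0.00952 and 0 of all genes passed, so that count is void. Leaving out libraries gave 4 to 7 regions gained and 1 to 5 lost at 2 h, 0 to 5 lost at 16 h, 2 to 6 lost at 48 h, 0 to 14 rising, 0 to 2 falling, and 0 to 1 genes. The zeros for rising regions and genes came from using 1 replicate number alone, where 7 libraries allow no call (smallest p for genes 0.1). The number lost rose without replicate 2 at 0 h, and at 16 h it was 1 without replicate 2 at 16 h. The late minus early difference of Fst was −0.67 with 50% cover, −0.17 within 100 kb, −0.33 without 0 h, and from −0.13 (without replicate 1 at 0 h) to 0.47 with libraries left out. Except for what the construction of an alternative shows, the cause was not tested. Single libraries were left out after the data were seen.

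Replicate numbers did not pair the calls of single regions across times. The correlation of same-numbered deviations ranged from −0.0205 to 0.0175 over the pairs of times. List length did go with the number: replicate 2 held more peaks than replicate 1 at every time. At 8 h it held 61403 against 61393, and at 2 h 61988 against 58322. With a replicate block, 0 genes passed, since 400 splits allow a smallest p of 0.005, which gives Srgn an adjusted p of 0.08. The rising region of Srgn at 4.76 kb had 0.0555, and 11 member regions rose and 1 fell. The block changed no other call.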
